A study of Homo sapiens with 6 samples.

Results

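The 77 genes described here are named for the mitochondrial ribosome, and all but MRPS36, described below, encode proteins of it. They were chosen by symbol alone, as every row of the deposited human gene table whose name is MRPL (large subunit) or MRPS (small subunit) followed by a number, and they were 77 of the 18625 genes in that table, with 48 MRPL and 29 MRPS genes. Expression was measured by RNA-seq of total RNA in NB4 cells, an established human line from acute promyelocytic leukemia that carries the PML-RARA fusion. The cells were kept for 3 days with DMSO, the solvent, or with 10 μM Tan I (tanshinone I, a diterpene from the root of Salvia miltiorrhiza), with 3 libraries in each group. The comparison asks which transcripts differ after Tan I, and here whether genes of the large subunit and genes of the small subunit differ alike. Both groups are the same line in the same medium, no label states that the libraries come from separate cultures, and the p-values then measure only the spread between these libraries.

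Mitochondria translate the few messages of their own genome on a ribosome that is separate from the cytosolic one. Its ribosomal RNAs are transcribed from mitochondrial DNA, whereas all its proteins are encoded in the nucleus, made in the cytosol and imported. The small subunit binds the message and decodes it, and the large subunit forms the peptide bonds and releases the chain through an exit tunnel at the inner membrane. The products are core subunits of the respiratory chain and of the ATP synthase, so the set of nuclear genes is needed for oxidative phosphorylation. Many of the proteins descend from bacterial ribosomal proteins, and others are specific to mitochondria.

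The reads recovered on the listed genes were 25356503, 27282579 and 31679138 in DMSO libraries 1 to 3, and 24298627, 24250439 and 21502760 in Tan I libraries 1 to 3. All 77 genes passed the filter of a mean of at least 10 normalized counts over the 6 libraries, as did 16887 genes in all, and 76 of the 77 had a mean of at least 50. A normalized count is the number of reads on a gene divided by the library's size factor. The 77 genes together held 0.398%, 0.489% and 0.417% of the reads in DMSO 1, 2 and 3, and 0.401%, 0.455% and 0.512% in Tan I 1, 2 and 3. These shares overlapped between the groups, since DMSO 2 lay above 2 of the 3 Tan I libraries. In bulk RNA, less RNA per cell and fewer cells with the transcript cannot be told apart. Of 10 promyelocytic markers in the table, MPO, the myeloperoxidase of the primary granules, was abundant in every library, at 33279 to 64107 normalized counts, and its log2 fold change was -0.78 ± 0.15 (SE). Of the 10 promyelocytic markers 5 log2 fold changes were above and 5 below 0, with a median of -0.03. MPO and CTSG, a granule protease, were called lower before adjustment (2 of 10, beside 1.1% of all genes), and none was called higher, the largest value above 0 being 0.36 ± 0.18 (SE) for SPI1, a myeloid transcription factor. The part of these markers in the values of the ribosomal genes was not tested. Of 5 markers of other cell types none was listed at 0, with COL1A1 at 65.5 to 120 and CD3D at 245 to 515 normalized counts.

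No mitochondrial ribosomal protein gene passed the test between Tan I and DMSO when all 6 libraries were fitted. In limma, fitted to log2(normalized count + 1) over all 16887 genes, 0 of the 77 genes had an adjusted p of at most 0.05 (0 genes and 0% of all genes tested), 0 had an unadjusted p of at most 0.05 (410 of all genes), and 0 had an unadjusted p of at most 0.05 while the log2 fold change was 0.25 or more in either direction. The background for that last rule was 408 of 16887 genes, or 2.42%, with 1.32% called higher and 1.1% called lower in Tan I. Without Tan I 1, the library with the lowest value of its group in most of these genes, 9 of the 77 genes (11.7%) were called by that rule, all higher, beside 1496 of all genes tested (8.86%). In edgeR (quasi-likelihood test) and in DESeq2, both run on recovered reads, 0 of the 77 genes passed at an adjusted and 0 at an unadjusted p of at most 0.05, the smallest unadjusted p being 0.0874 and 0.0662. In limma the smallest was 0.0932, for MRPL52, a large-subunit protein singled out here after its values were seen, with a log2 fold change of 0.23 ± 0.12 (SE) and an adjusted p of 0.999. The 95% intervals of the log2 fold changes reached 0.23 to 0.97 to either side of the estimate, with a median of 0.53. An estimate smaller than the reach of its interval could not be told from 0. True changes larger than that could be missed as well, above all after adjustment over all genes.

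The fold changes were small and mostly positive. On the log2 scale 69 of the 77 were above 0 and 8 below, with a median of 0.14, beside 49.7% above 0 and a median of -0.00 over all genes tested. For the large subunit 45 of 48 were above 0, with a median of 0.15 and a range of -0.07 to 0.30. For the small subunit 24 of 29 were above 0, with a median of 0.08 and a range of -0.16 to 0.60. None of these values passed the test for a single gene, and the median moved with individual libraries, to -0.04 (29 of 77 above 0) without Tan I 3, to 0.02 without DMSO 1, and to 0.29 without DMSO 2 or without Tan I 1.

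**Figure D1:**
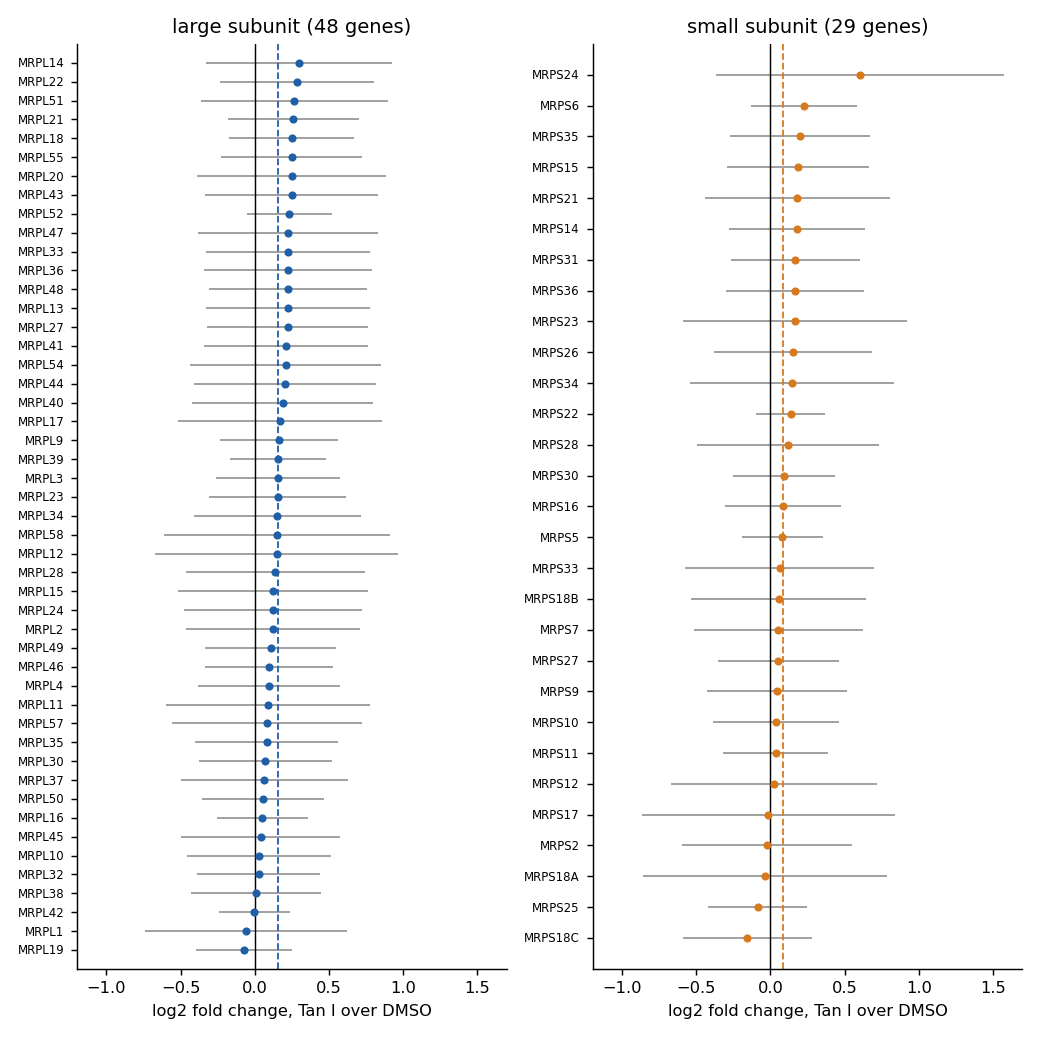
Log2 ratio of Tan I to DMSO (x axis) for each large-subunit gene (left, 48 genes) and small-subunit gene (right, 29 genes), ordered by size. Points are limma estimates, bars their 95% intervals, and dashed lines the medians of 0.15 and 0.08; every interval includes 0.

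The spread among libraries of the same treatment exceeded the fold change in most genes, and it ran in the same order along the set. The standard deviation within groups, on the log2 scale, had a median of 0.34 over the 77 genes and 0.28 over all genes tested. It was larger than the absolute log2 fold change in 72 of 77. That count was not made over all genes tested, so it cannot be taken as particular to this set. DMSO 2 was the highest DMSO library in 70 of the 77 genes (90.9%, beside 45.9% of all genes tested), and Tan I 3 was the highest Tan I library in 72 (93.5%, beside 43.3%). DMSO 1 was the lowest DMSO library in 64 genes (83.1%, beside 38.6%), and Tan I 1 the lowest Tan I library in 70 (90.9%, beside 42.9%). Both DMSO 2 and Tan I 3 stood highest in the same 70 genes, 45 of 48 large-subunit and 25 of 29 small-subunit genes, against 35.0% of all genes tested. The genes are measured in the same 6 libraries, so these counts describe the libraries and are not independent of one another.

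Set against each gene's mean over the DMSO libraries, the median of the 77 genes was -0.21, 0.29 and -0.07 in DMSO 1, 2 and 3 and -0.19, 0.12 and 0.50 in Tan I 1, 2 and 3, as log2 differences. The highest DMSO library therefore lay above the lower pair of Tan I libraries, and the groups overlapped. Over all genes tested the same medians stayed between -0.01 and 0.02. The first principal component of all genes, which held 70.8% of the variance, ordered the libraries in the same way, with scores of -48.0, 41.1 and -26.7 in DMSO 1, 2 and 3 and of -46.8, 8.65 and 71.6 in Tan I 1, 2 and 3. Tan I 3 had the fewest reads, while DMSO 2 had the second most. What set this order was not tested. With DMSO 2 and Tan I 3 left out together, an alternative chosen after seeing the data, 68 of 77 log2 fold changes were above 0, with a median of 0.11.

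**Figure D2:**
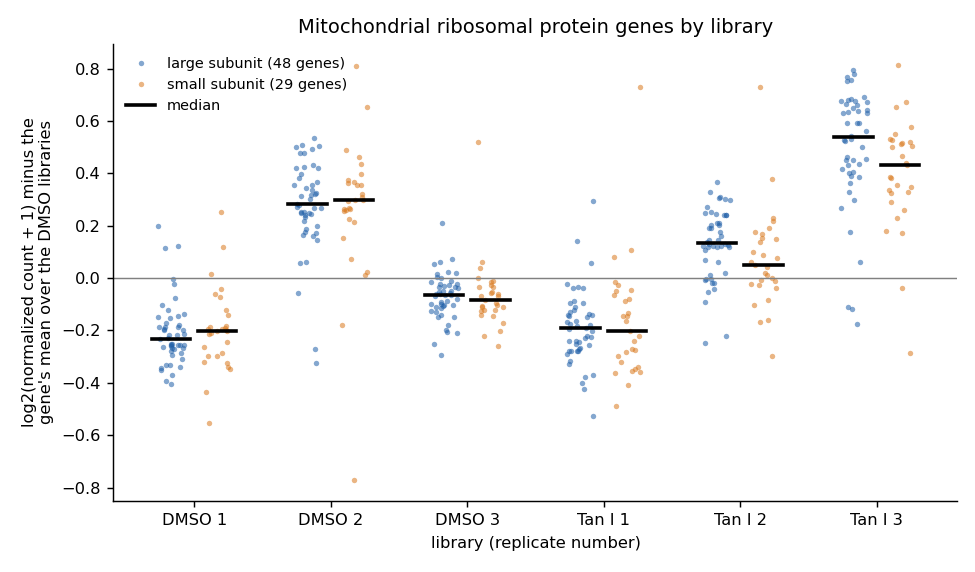
Log2(normalized count + 1) of each gene minus its mean over the 3 DMSO libraries (y axis), by library (x axis), for the 48 large-subunit and 29 small-subunit genes; black lines are medians. DMSO 2 and Tan I 3 lie highest, with large-subunit medians of 0.28 and 0.54, and DMSO 1 and Tan I 1 lowest, with -0.23 and -0.19.

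The large and the small subunit moved together from library to library. Large-subunit medians were -0.23, 0.28 and -0.06 in DMSO 1, 2 and 3 and -0.19, 0.13 and 0.54 in Tan I 1, 2 and 3, and small-subunit medians were -0.20, 0.30 and -0.09, then -0.20, 0.05 and 0.43. The large-subunit median minus the small-subunit median was -0.03, -0.02 and 0.02 in DMSO 1, 2 and 3, and 0.01, 0.09 and 0.11 in Tan I 1, 2 and 3. This difference had a mean of -0.01 in DMSO and 0.07 in Tan I and a standard deviation within groups of 0.04 (n = 3 each), beside 0.31 for the median of all 77 genes. The groups still overlapped, because DMSO 3 lay above Tan I 1. The difference between the 2 medians of log2 fold change was 0.07, and it stayed between 0.03 and 0.09 in every alternative fit and with each library left out. It was not given a test, since the genes of a subunit are not replicates of a treatment.

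The subunits also differed in properties of their transcripts. The canonical transcript had a median length of 1196 bases for large-subunit and 1458 bases for small-subunit genes, with a GC content of 50.6% and 46.6%. Split by transcript length, the 26 shortest of the 77 genes (508 to 1009 bases) had a median log2 fold change of 0.21, the 25 in the middle 0.12, and the 26 longest (1605 to 15557 bases) 0.08. Over all genes tested, cut at nearly the same lengths, the medians were 0.06, 0.08 and -0.02. With each library corrected for transcript length and GC content, chosen after seeing the data, the large-subunit median was 0.14 and the small-subunit median 0.10, on a background median of 0.03. Whether transcript length had a part in the difference between the subunits was not tested beyond this correction.

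A few symbols do not match the place of the protein in the ribosome. MRPS30 and MRPS18A lie in the large subunit of the known structures in spite of their names, and MRPS36 is a subunit of the 2-oxoglutarate dehydrogenase complex. MRPS30 was measured at 1808, 2158 and 1651 normalized counts in DMSO and at 1843, 1852 and 2275 in Tan I, with a log2 fold change of 0.09 ± 0.15 (SE). MRPS18A was measured at 138, 295 and 160 and at 147, 152 and 271, with a log2 fold change of -0.04 ± 0.35, and MRPS36 at 527, 698 and 535 and at 526, 641 and 825, with 0.17 ± 0.20. All 3 overlapped between the groups. With MRPS30 and MRPS18A counted as large-subunit genes and MRPS36 left out, the medians were 0.15 over 50 genes and 0.08 over 26.

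The highest fold changes of the large subunit belonged to MRPL14, MRPL22, MRPL51 and MRPL21. MRPL14, a protein at the face that meets the small subunit, lies on the minus strand at chr6:44113451-44127452 (GRCh38). It had 721, 1048 and 781 normalized counts in DMSO and 716, 1054 and 1455 in Tan I, a log2 fold change of 0.30 ± 0.27 (SE, exact two-sided permutation p = 0.6, where 3 against 3 libraries allow 0.1 at the smallest). Tan I 3 stood above every other library, Tan I 2 was level with DMSO 2, and Tan I 1 lay at the bottom. MRPL22, which lines the exit tunnel, had 1061, 1452 and 1106 in DMSO and 1098, 1470 and 1916 in Tan I, a log2 fold change of 0.29 ± 0.22. MRPL51, a protein specific to mitochondria, had 2177, 3358 and 2564 in DMSO and 2232, 3274 and 4477 in Tan I, a log2 fold change of 0.27 ± 0.27, and 27.6% of its merged exon length lies opposite NCAPD2. In each of these genes only Tan I 3 exceeded all DMSO libraries by a wide margin. MRPL21, of bacterial descent, followed with a log2 fold change of 0.26 ± 0.19.

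At the other end of the large subunit stood MRPL19, MRPL1, MRPL42 and MRPL38. MRPL19, of bacterial descent, had 1123, 990 and 986 normalized counts in DMSO and 1138, 868 and 955 in Tan I, a log2 fold change of -0.07 ± 0.14. Its highest library in each group was replicate 1, the reverse of most of the set. MRPL1, the protein of the L1 stalk, had 280, 474 and 280 in DMSO and 252, 286 and 456 in Tan I, with -0.06 ± 0.29. MRPL42, specific to mitochondria, varied little, with 4089, 4322 and 4047 in DMSO and 4090, 4004 and 4337 in Tan I, a log2 fold change of -0.00 ± 0.10. MRPL38, also specific to mitochondria, had 500, 368 and 534 in DMSO and 450, 545 and 408 in Tan I, with 0.01 ± 0.19, and DMSO 2 and Tan I 3 were its lowest libraries. In all 4 genes the groups overlapped.

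In the small subunit MRPS24 had the highest fold change and the lowest level of the whole set. MRPS24, of bacterial descent, lies on the minus strand at chr7:43866558-43869893 and had 18.6, 8.67 and 22.7 normalized counts in DMSO (16.7 ± 7.20, SD, n = 3) and 26.4, 26.3 and 20.0 in Tan I (24.2 ± 3.68, SD, n = 3). The difference came mostly from DMSO 2, where 9 reads were counted, and DMSO 3 lay above Tan I 3. Its log2 fold change was 0.60 ± 0.41 (SE), with a 95% interval of -0.37 to 1.57, and it was called only when the first principal component was a covariate (0.76). The gene shares 23.3% of its merged exon length with the readthrough gene URGCP-MRPS24 on the same strand, and the part of this overlap in the low count was not tested.

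MRPS6, MRPS35 and MRPS15 came next. MRPS6, of bacterial descent, had 966, 1067 and 1014 normalized counts in DMSO and 961, 1318 and 1323 in Tan I, a log2 fold change of 0.23 ± 0.15 (SE). Here Tan I 2 and Tan I 3 stood level and above all DMSO libraries, and Tan I 1 lay below them. MRPS35, specific to mitochondria, had 3322, 4697 and 3572 in DMSO and 3481, 4438 and 5452 in Tan I, with 0.20 ± 0.20, and MRPS15, of bacterial descent, followed with 0.19 ± 0.21. The lowest fold changes were those of MRPS18C, MRPS25, MRPS18A and MRPS2. MRPS25, specific to mitochondria, had 2789, 2272 and 2684 in DMSO and 2772, 2427 and 2108 in Tan I, a log2 fold change of -0.09 ± 0.14, with DMSO 2 and Tan I 3 the lowest of their groups. MRPS2, of bacterial descent, had 789, 1315 and 959 in DMSO and 781, 931 and 1304 in Tan I, with -0.02 ± 0.25.

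The 3 paralogs of the bacterial S18 protein differed in level, and none of them passed the test between treatments. MRPS18B had 1950, 3123 and 2382 normalized counts in DMSO and 1926, 2423 and 3485 in Tan I, with a log2 fold change of 0.06 ± 0.25 (SE). MRPS18C had 177, 253 and 189 in DMSO and 169, 182 and 199 in Tan I, with -0.16 ± 0.19. Per kilobase of canonical transcript their mean levels were 1823 for MRPS18B, 167 for MRPS18A and 126 for MRPS18C, in normalized counts. Of the merged exon length of MRPS18A 50.9% lies opposite RSPH9, and of that of MRPS18C 40.2% lies opposite ABRAXAS1. The strand setting of the counting is not given in the sources used here, and without strand such reads cannot be told apart.

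Proteins with a described role in the working ribosome overlapped between the groups as well. At the stalk that recruits translation factors, MRPL12 had 300.2, 484 and 281 normalized counts in DMSO and 238, 398 and 587 in Tan I, a log2 fold change of 0.15 ± 0.35 (SE), MRPL10 had 0.03 ± 0.21 and MRPL11, at the base of the stalk, 0.09 ± 0.29. MRPL12 shares 69.5% of its merged exon length with a readthrough gene on the same strand. For the decoding centre, MRPS12 had 287, 492 and 304 in DMSO and 249, 372 and 484 in Tan I, with 0.02 ± 0.30, and for the head of the small subunit MRPS7 had 0.05 ± 0.24. MRPS27, a protein with pentatricopeptide repeats, had 0.05 ± 0.17, MRPL44, which has the fold of a ribonuclease III, 0.20 ± 0.26, and MRPL58, a peptidyl-tRNA hydrolase built into the large subunit, 0.15 ± 0.33. In each of these 8 genes the groups overlapped.

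A single gene had no overlap between the groups. MRPS22, a small-subunit protein specific to mitochondria, is named because of this pattern, after its values were seen. It had 1333, 1331 and 1295 normalized counts in DMSO (1320 ± 21.7, SD, n = 3) and 1395, 1467 and 1488 in Tan I (1450.0 ± 49.0, SD, n = 3). Its log2 fold change was 0.14 ± 0.10 (SE), with a limma p of 0.216 before adjustment and 0.999 after it. Groups without overlap were found in 1 of the 77 genes and in 7.89% of all genes tested. Of the merged exon length of MRPS22, 38.9% lies opposite COPB2.

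Levels differed far more between genes than between treatments. Per kilobase of the canonical transcript, the mean over the 6 libraries ran from 30.7 normalized counts for MRPS24 to 7517 for MRPL4, with a median of 831 over the 77 genes, 1004 for the large and 658 for the small subunit. MRPL4, a protein of the exit tunnel at chr19:10251901-10260055 on the plus strand, had 7528, 10358 and 8526 normalized counts in DMSO and 7248, 9611 and 11662 in Tan I, a log2 fold change of 0.10 ± 0.20 (SE). MRPL51 (3356 per kilobase) and MRPL18 (3084), which binds RNA at the central protuberance, came next, and their libraries overlapped each other but not those of MRPL4. MRPL18 had 2439, 3047 and 2656 normalized counts in DMSO and 2530, 3339 and 3937 in Tan I, a log2 fold change of 0.25 ± 0.18. At the low end MRPS17, of bacterial descent, had 57.8, 150.3 and 71.1 normalized counts in DMSO and 70.4, 85.4 and 100.02 in Tan I, with -0.01 ± 0.37, and stood at 49.9 per kilobase, and 22.4% of its merged exon length is shared with a same-strand gene annotated as protein coding. The order depends on the length used, since 32 of the 77 genes moved by more than 10 places when the merged exons of all transcripts replaced the canonical transcript. By merged exons MRPL4 (2244 per kilobase), MRPL18 (2177) and MRPL51 (2171) were again at the top, and MRPS24 (7.85), MRPS18C (40.1) and MRPS17 (42.5) at the bottom.

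**Figure D3:**
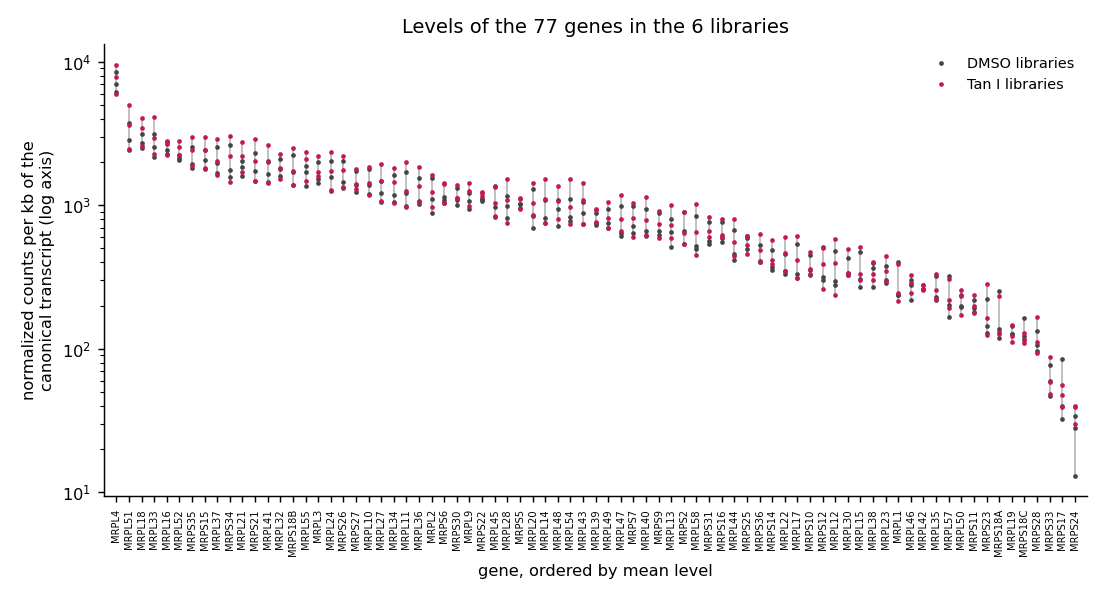
Normalized counts per kilobase of the canonical transcript (y axis, log scale) for each of the 77 genes, ordered by mean level (x axis), with a point for each of the 3 DMSO and 3 Tan I libraries and a grey line over their range. Levels run from MRPS24, with a mean of 30.7, to MRPL4, with 7517, and the points of the treatments are intermixed along the order.

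Few genes departed from the order of libraries shared by the set, and they are named because of it, after their values were seen. In MRPL19, MRPL38, MRPL46, MRPS24 and MRPS25 neither DMSO 2 nor Tan I 3 was the highest of its group, and in MRPS5 and MRPS22 only Tan I 3 was. MRPL46 and MRPS11 are neighbours that start 63 bases apart on opposite strands of chromosome 15, MRPL46 at chr15:88459477-88467390 and MRPS11 at chr15:88467453-88480776. MRPL46 had 299, 216 and 274 normalized counts in DMSO and 320, 284 and 240.0 in Tan I, so that DMSO 2 and Tan I 3 were the lowest libraries. MRPS11 had 616, 746 and 656 in DMSO and 598, 676 and 803 in Tan I, so that DMSO 2 and Tan I 3 were the highest. MRPL46 shares 11.3% of its merged exon length with a same-strand gene annotated as protein coding.

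The promoter windows of the genes held ETS and YY1 motifs more often than the background. Whether these motifs have a part in the order of libraries was not tested. ETS factors such as GABP, and YY1 and NRF1, are known regulators of nuclear genes for mitochondrial proteins. RefSeq windows from 250 bases before to 50 after the start (GRCh38.p14) were matched for 68 of the 77 genes, 41 MRPL and 27 MRPS, and searched on both strands. The ETS letters CCGGAAG were found in 28 of the 68 windows (41.2%), beside 19.2% of 9965 windows of coding genes tested and 10.7% of 27305 windows in all. The YY1 letters AAGATGGC were found in 20 (29.4%), beside 5.48% and 3.03%, and both motifs in 8 (11.8%), beside 1.34% and 0.597%. The NRF1 letters GCGCNTGCG were found in 11 (16.2%, beside 14.8% and 8.05%), the SP letters GGGCGG in 41 (60.3%, beside 69.4% and 44.6%) and the E-box CACGTG in 6 (8.82%, beside 10.2% and 7.43%). An ETS, YY1 or NRF1 match was present in 44 of the 68 windows (64.7%, beside 34.1% and 19.2%). No window was searched for MRPS36, MRPL2, MRPL23, MRPL35, MRPL10, MRPL15, MRPL21, MRPL13 or MRPS28. A match is a run of letters in the window and does not show that a factor binds there.

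**Figure D4:**
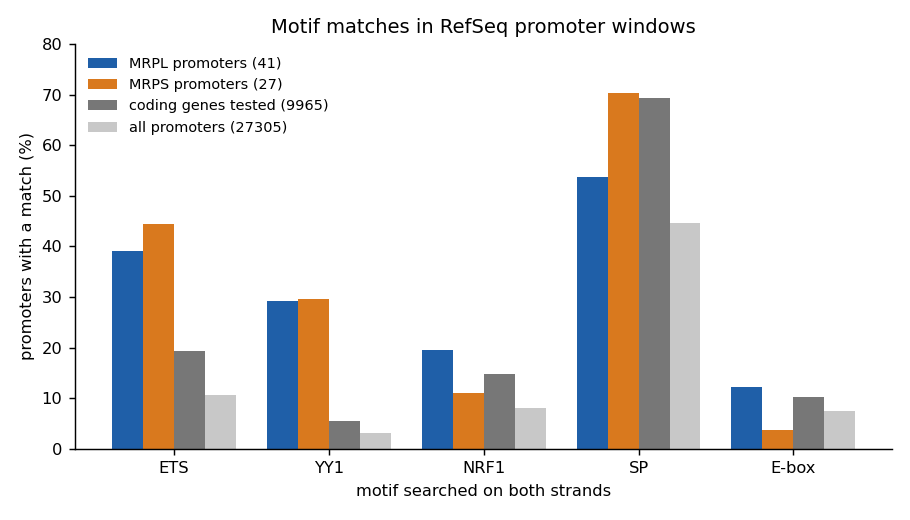
Share of promoter windows with at least 1 match on either strand (y axis, percent) for 5 motifs (x axis) in MRPL genes (41 windows), MRPS genes (27), coding genes tested (9965) and all RefSeq promoters (27305). The YY1 letters are in 29.3% of MRPL and 29.6% of MRPS windows, beside 5.48% of coding genes tested, while SP and E-box shares of the set are near or below those of coding genes.

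The letters AAGATGGC stood on the transcribed strand within the first 50 transcribed bases in 15 of the 68 genes (22.1%, 8 of 41 large-subunit and 7 of 27 small-subunit genes), beside 318 of 9965 coding genes tested (3.19%). The letters contain an ATG, and in 12 of the 15 genes that ATG is an annotated start codon in GENCODE release 44, so that in them the motif and the start of the protein coincide. The windows follow, from 10 bases before the letters, 5′ to 3′ on the gene's strand, with the YY1 letters in capitals, to show the bases around them in genes whose levels differ widely, such as MRPL51 and MRPS24. They were chosen for holding the letters and are aligned on them, and the letters begin between base 7 (MRPL38) and base 36 (MRPL22) of the transcript.
MRPL20: cgacccgggcAAGATGGCagcggcgctgcg
MRPL22: gggagggcgaAAGATGGCggcggca
MRPL38: ggccggagggAAGATGGCggcgccctggtg
MRPL42: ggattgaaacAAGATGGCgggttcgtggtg
MRPL45: ttgcgggaacAAGATGGCagcccccatacc
MRPL46: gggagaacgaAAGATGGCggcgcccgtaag
MRPL50: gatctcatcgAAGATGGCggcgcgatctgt
MRPL51: ggtaaggcccAAGATGGCtgtcttcgcctt
MRPS10: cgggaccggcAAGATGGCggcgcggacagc
MRPS18A: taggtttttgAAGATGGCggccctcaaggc
MRPS18B: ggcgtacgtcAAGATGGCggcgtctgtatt
MRPS24: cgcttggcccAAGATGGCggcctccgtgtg
MRPS27: ggtacgctccAAGATGGCtgcctccatagt
MRPS30: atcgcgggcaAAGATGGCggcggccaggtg
MRPS7: gtggccagccAAGATGGCtgcccccgcagt

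The median log2 fold change was 0.06 in the 20 genes with the YY1 letters in the window and 0.15 in those without, 0.15 and 0.10 for the ETS letters and 0.08 and 0.14 for the NRF1 letters, and these differences were not tested. Whole windows are shown for MRPL20 (chr1:1407244-1407543, minus strand), which holds ETS, YY1 and NRF1 letters, for MRPL51 (chr12:6493213-6493512, minus strand), among the highest in level and in fold change, and for MRPS22 (chr3:139343744-139344043, plus strand), the gene without overlap between the groups. They are written 5′ to 3′ on the gene's strand, with ETS, YY1 and NRF1 letters of either orientation in capitals.
MRPL20: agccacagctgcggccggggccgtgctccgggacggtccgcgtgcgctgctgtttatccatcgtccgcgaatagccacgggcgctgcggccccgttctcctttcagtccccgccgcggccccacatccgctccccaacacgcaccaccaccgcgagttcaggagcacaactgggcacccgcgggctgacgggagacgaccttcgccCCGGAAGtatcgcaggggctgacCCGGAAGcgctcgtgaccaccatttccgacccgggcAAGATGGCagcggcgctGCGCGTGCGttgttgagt
MRPL51: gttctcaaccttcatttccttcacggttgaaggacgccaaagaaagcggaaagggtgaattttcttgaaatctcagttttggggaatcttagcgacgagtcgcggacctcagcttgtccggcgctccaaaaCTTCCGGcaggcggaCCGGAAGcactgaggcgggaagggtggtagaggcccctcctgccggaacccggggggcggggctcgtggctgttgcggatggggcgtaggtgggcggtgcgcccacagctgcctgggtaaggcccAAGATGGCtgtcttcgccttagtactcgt
MRPS22: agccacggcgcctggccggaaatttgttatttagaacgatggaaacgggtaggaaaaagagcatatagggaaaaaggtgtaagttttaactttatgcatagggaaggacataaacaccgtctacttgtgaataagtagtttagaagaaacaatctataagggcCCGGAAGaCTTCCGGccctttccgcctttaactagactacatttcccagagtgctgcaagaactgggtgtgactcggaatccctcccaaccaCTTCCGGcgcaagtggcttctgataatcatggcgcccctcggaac

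MRPL20 carries 2 ETS matches before its start and the YY1 letters after it, MRPL51 2 ETS matches and the YY1 letters, and MRPS22 3 ETS matches and no YY1 letters. MRPL20, a large-subunit protein of bacterial descent chosen for its promoter, had 485, 905 and 588 normalized counts in DMSO and 596, 727 and 1000.2 in Tan I, a log2 fold change of 0.25 ± 0.27 (SE). In the genome the 77 genes are spread over 21 chromosomes, with at most 8 on any of them. Of the 77 genes, 27 (35.1%) start within 1000 bases of a coding gene on the opposite strand, beside 18.2% of 12500 coding genes tested. Such neighbours include FAU for MRPL49, NDUFS6 for MRPL36, NDUFB5 for MRPL47, TWNK for MRPL43 and SARS2 for MRPS12, the last 4 being themselves mitochondrial proteins. These examples were picked, and the others include LRRC46 for MRPL10, TCP1 for MRPL18, EME1 for MRPL27, ZNF189 for MRPL50 and GGA3 for MRPS7. The share of mitochondrial proteins among all these neighbours was not counted. Exons of 40 of the 77 genes overlap another annotated gene, 17 on the same strand and 29 on the opposite strand, so that reads there could be split or shared. Pseudogenes that carry their names exist for 35, 8 in the case of MRPS21. The study's methods state that reads mapping to several places were removed. Reads that match a gene and its pseudogene alike could therefore be lost from the count.

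No gene in the lists given next, which work with the mitochondrial ribosome, passed the test in the reported fit. Mitoribosomal proteins under other names are AURKAIP1, CHCHD1, DAP3, GADD45GIP1 and PTCD3, and all 5 had log2 fold changes above 0, with a median of 0.17 and 0 called. DAP3, a GTP-binding protein of the small subunit, had 4202, 5715 and 4481 normalized counts in DMSO and 4335, 4852 and 6191 in Tan I, with 0.09 ± 0.18 (SE). PTCD3 had 3362, 2817 and 3073 in DMSO and 3281, 3413 and 2711 in Tan I, with 0.02 ± 0.13. Assembly factors (24 genes, 11 above and 13 below 0, median -0.01), translation factors (17 genes, 8 and 9, -0.04) and mitochondrial aminoacyl-tRNA synthetases (20 genes, 10 and 10, 0.00) had about as many values above as below 0, with 0 called in the reported fit. The lowest of these values were those of TSFM (-0.77 ± 0.37), the exchange factor of TUFM, and PDF (-0.65 ± 0.29), the deformylase that removes the formyl group of nascent chains. TSFM had 31.7, 33.7 and 28.1 normalized counts in DMSO and 22.5, 23.2 and 10.7 in Tan I, and PDF 36.4, 31.8 and 27.3 in DMSO and 24.4, 16.9 and 18.7 in Tan I. In both genes every Tan I library lay below every DMSO library. Groups without overlap were found in 2 of the 17 translation factors, beside 7.89% of all genes tested. TSFM and PDF were both called when eBayes was run without the trend (limma p of 0.0446 and 0.0140 before adjustment), a fit that called 3.29% of all genes. They are named after their values were seen. TUFM, the elongation factor that brings aminoacyl-tRNA to the ribosome, had 0.12 ± 0.21 (SE).

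The ribosomal RNAs that these proteins bind did not pass the test either. MT-RNR1, the RNA of the small subunit, had 41287, 64298 and 51821 normalized counts in DMSO and 48200, 65830 and 97113 in Tan I, a log2 fold change of 0.39 ± 0.29 (SE). MT-RNR2, the RNA of the large subunit, had 294862, 559016 and 347275 in DMSO and 277443, 339894 and 505906 in Tan I, with -0.09 ± 0.36. Both overlapped between the groups. Of the 13 mitochondrial mRNA genes, 8 were above and 5 below 0, with a median of 0.02 and 0 called, and of 11 genes for transcription and replication of mitochondrial DNA, 8 were above and 3 below 0, with a median of 0.04 and 0 called. In DESeq2, with the same total per library, without DMSO 3 and with the first principal component as a term 1 of these 11 was called. The same fits called 2.49%, 2.59%, 1.19% and 8.86% of all genes. The gene was TWNK, the mitochondrial DNA helicase, named after its values were seen, with log2 fold changes of -0.58, -0.58, -0.70 and -0.64. TFAM, which packages mitochondrial DNA and starts its transcription, had 0.02 ± 0.13, and POLRMT, the mitochondrial RNA polymerase, 0.04 ± 0.13.

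Among 8 regulators of mitochondrial biogenesis 1 was called, MYC, a transcription factor that promotes growth and ribosome production, beside 1.1% of all genes called lower. Groups without overlap were found in 2 of the 8 regulators, MYC among them, beside 7.89% of all genes tested. MYC had 4064, 5259 and 4870 normalized counts in DMSO and 2990, 3385 and 3958 in Tan I, so that every Tan I library lay below every DMSO library. Its log2 fold change was -0.46 ± 0.15 (SE), with a limma p of 0.0186 before adjustment and 0.999 after it, and it was no longer called without DMSO 2, DMSO 3, Tan I 1 or Tan I 2 in turn (limma p between 0.0539 and 0.0638 before adjustment) or with the length and GC correction (0.0613), while its log2 fold change stayed between -0.43 and -0.36 without DMSO 2, DMSO 3 or Tan I 1, at -0.45 without Tan I 2 and at -0.40 with the correction. The proteins of the cytosolic ribosome, 79 genes, had 77 log2 fold changes above 0 and a median of 0.08, and 1 of them was called, RPS10, a small-subunit protein (beside 1.32% of all genes called higher), with 0.38 ± 0.15 (limma p of 0.0428 before and 0.999 after adjustment). Leaving out any library other than Tan I 1 ended the call of RPS10 (limma p between 0.0811 and 0.156 before adjustment), as did the same total per library (0.0686) and the length and GC correction (0.0574), with log2 fold changes of 0.30 to 0.40. Cytosolic ribosomal proteins had the same order of libraries within each group as the mitochondrial set, with medians of -0.26, 0.27 and -0.01 in DMSO 1, 2 and 3 and -0.35, 0.04 and 0.57 in Tan I 1, 2 and 3, and DMSO 2 and Tan I 3 were both highest in 75 of the 79 genes.

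**Figure D5:**
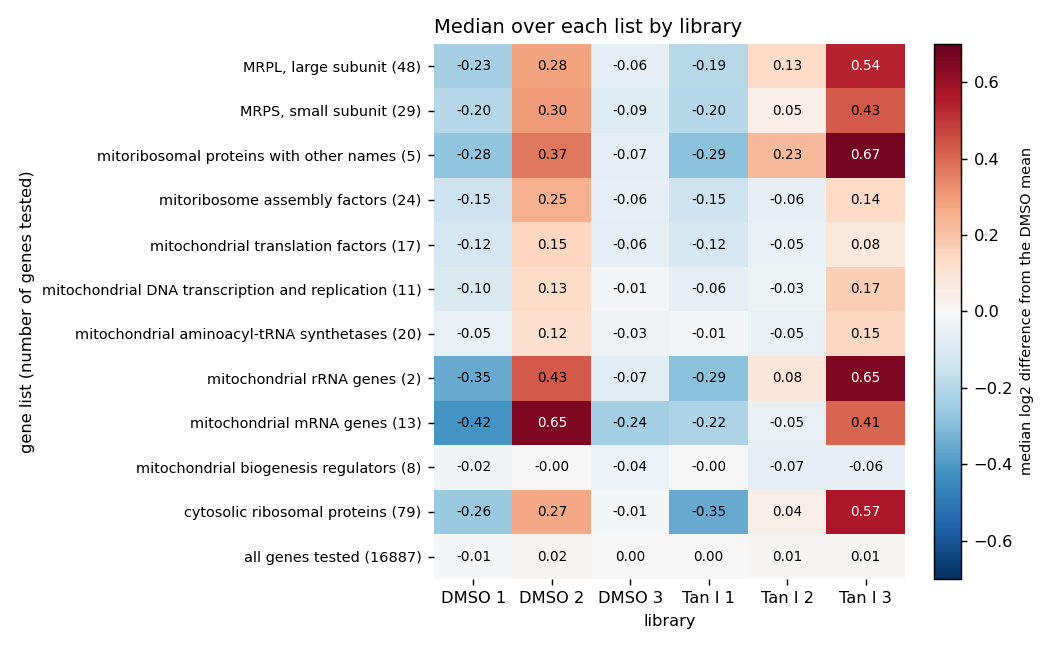
Median log2 difference from the DMSO mean of each gene (colour and printed value) for lists of mitochondrial and ribosomal genes (rows, with the number tested) in the 6 libraries (columns). DMSO 2 and Tan I 3 are the 2 highest libraries for every list of genes except the biogenesis regulators, with medians of 0.12 to 0.65 and 0.08 to 0.67, while all genes tested stay between -0.01 and 0.02.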

How the data were processed

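NB4 cells kept with DMSO or Tan I were profiled by RNA-seq, with 3 libraries per group. According to the submitters' processing notes and the study's methods, reads were aligned to GRCh38 with STAR, counted per gene with featureCounts and tested with DESeq2. The study's methods add that reads mapping to several places were removed. Versions are not given in the sources used here. The authors deposited normalized values (unit signal), which are gene read counts divided by a size factor per library. In each library 100% of these values were whole reads times a constant (within 0.01 of a read), and the recovered size factors ran from 0.750 to 1.28. The table also holds the authors' mean, log2 fold change, standard error, Wald score, p-value and adjusted p-value, and none of these columns was used. Columns named as controls were taken as the DMSO group, the only group without Tan I in the labels.

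After genes with a mean under 10 were dropped (1738 genes), log2(value + 1) of the other 16887 was fitted with limma 3.58.1 in R 4.3.3 (eBayes with a variance trend, treatment as the only term), with Benjamini-Hochberg adjustment over all genes tested. The exact two-sided permutation test was used for single genes. The fitting code was tested on simulated data. The alternatives were edgeR 4.0.16 (quasi-likelihood) and DESeq2 1.42.0 on the recovered reads, a pseudocount of 0.1 or 10, a mean of at least 50 or none as the filter, quantile normalization, the same total per library, eBayes without the trend, the first principal component as a covariate, the replicate number as a block, a regrouping of subunits by structure, and each library left out in turn. Added after seeing the data were a correction of each library by natural splines (5 degrees of freedom for length and for GC content, 16825 genes) and leaving out DMSO 2 and Tan I 3 together.

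Gene positions and lengths came from GENCODE release 44, which held 99.6% of the identifiers and all 77 genes. Motifs were counted by exact letters in the RefSeq promoter table. The members and lists were chosen with earlier results of these data known. Genes were named by rule: those called, the 4 highest and 4 lowest fold changes of each subunit, the 3 highest and 3 lowest levels per kilobase, members with described roles or with symbols that differ from their place, called members of related lists, and MT-RNR1, MT-RNR2, TFAM, POLRMT, TUFM, DAP3 and PTCD3. Other names were chosen after their values were seen.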

Additional observations from a re-analysis of the deposited data

How the results depend on the processing

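The number of mitochondrial ribosomal protein genes called was 0 in the reported fit and 1 after adding the first principal component as a covariate (MRPS24, 1.3% of the 77 genes, beside 8.86% of all genes). With each library left out in turn it ran from 0 to 9, and the 9 genes called without Tan I 1, all higher (11.7%, beside 8.86% of all genes), were MRPL14, MRPL18, MRPL21, MRPL22, MRPL43, MRPL51, MRPL52, MRPL55 and MRPS6. The cause was not tested. In the other alternatives it was 0, and at an adjusted p of at most 0.05 (limma, edgeR or DESeq2) it was 0 in each of them. The number of log2 fold changes above 0 fell from 69 to 56 with the same total per library, which moved the median of all genes to -0.06, to 47 without DMSO 1, to 37 with that covariate and to 29 without Tan I 3. Over all genes the count of calls, 408 as reported, was 160 without Tan I 2, 180 without DMSO 1, 201 without DMSO 3, 271 without Tan I 3 and 1496 without Tan I 1 and also with that covariate. At an adjusted p, 0 as reported, it was 16 in DESeq2, 195 with that covariate and 2 with DMSO 2 and Tan I 3 left out together. Among related lists with 0 calls as reported, the alternatives called 0 to 3 of 13 mitochondrial mRNA genes. Of 17 translation factors they called 0 to 2. They called 0 to 1 in the assembly factor, rRNA, DNA transcription and replication and other-named mitoribosomal lists (24, 2, 11 and 5 genes). The 3 mRNA genes, MT-ND1, MT-ND5 and MT-ND6, were lower, with that covariate (8.86% of all genes). Without DMSO 2 (2.76%) MT-ND2 and MT-ATP6 were higher instead. MT-ND2 and MT-ATP8 were higher without DMSO 2 and Tan I 3 together (2.82%). PDF, lower, and SLIRP, higher, were called with that covariate and without Tan I 1 (8.86% each). PDF and TSFM, both lower, were called without the trend (3.29%).

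With a replicate block 0 of the 77 genes were called, 348 genes (2.06%) were called in all, and the median log2 fold change was 0.14 as before. The block ended the call of RPS10 (limma p of 0.0805 before adjustment) and added that of SLIRP, a translation factor list member (0.0493). Same-numbered libraries of the groups had correlations of 0.75, -0.09 and -0.45 for their deviations from the group means. DMSO 2 correlated best with Tan I 3 (0.76). Deviations from a mean of 3 libraries depend on one another, so these values cannot show whether the numbers pair the libraries. With 3 libraries per group, intervals of a median 0.53 to either side on the log2 scale limit what could be seen.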
